A study of Mus musculus with 10 samples.

Results

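Cluster 9 was 1 of the 25 clusters into which the colonic crypt cells of this mouse study fell, and it was taken as all kept colonic cells that carry the deposited cluster number 9. It held 110 of the 3065 kept colonic cells, out of 25204 cells in the whole series. Of these, 108 came from the colon of mice given dextran sulfate sodium (DSS), a polysaccharide in the drinking water that injures the colonic epithelium, and 2 came from normal colon. Cluster 9 was therefore 5.59% of the 1933 DSS cells (exact binomial 95% interval 4.61 to 6.71%) and 0.177% of the 1132 normal cells (0.0214 to 0.637%), and these intervals cover counting error only. The deposited class name of every cell of the cluster was "other", so its identity was read from marker genes.

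Each group was 1 single-cell RNA library of colonic crypts, with no transgene or Cre named for either, so no test between normal and DSS was possible and no p-value is given. The study's methods describe 8-week-old female mice for colitis, while the strain, the number of mice pooled and the sampling day of these libraries were not given in the sources used here. The 2 libraries went against a shared sex: Xist stood at 477 CPM (counts scaled to a common library total) in the normal library and 0.0926 CPM in the DSS library, whereas the Y-linked genes Ddx3y and Eif2s3y were at 0 in the normal library and at 33.7 and 64.8 CPM in the DSS library. Sex and DSS cannot be told apart in any normal-against-DSS value. The kept cells held 19906845 unique molecular identifiers (UMIs, each a captured RNA molecule) in the normal library and 32397122 in the DSS library, and the libraries shared 2 barcodes. A DSS cell of cluster 9 held between 1480 and 68226 UMIs with a median of 25612.5, and between 841 and 6722 genes with a median of 4248. Mitochondrial UMIs were 2.13 to 19.6% of a cell's total. A UMI of the pan-leukocyte gene Ptprc was found in 2 of the 108 cells, and 18 of the 108 (16.7%) were in the highest 5% of Scrublet doublet scores of their library, against 1 of 139 (0.719%) and 2 of 157 (1.27%) DSS cells of the similar clusters 7 and 6. Without the cells in the highest 5% of scores, the log2 ratio of cluster 9 over cluster 7 went from 3.77 to 3.16 for Reg3b and from 5.12 to 4.61 for Reg3g.

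The colonic crypt renews its lining from dividing stem cells at the base, and their absorptive descendants, the colonocytes, mature as they move up to the surface, where they take up salt and water, make a bacteria-repelling surface coat and meet microbial products first. After injury, surviving epithelial cells are known to switch on genes of a repair programme, among them Clu, Ly6a and the annexin Anxa1, and colonocytes can answer interferons from nearby lymphocytes with genes for antigen presentation and defence against intracellular microbes. Ido1, the gene that led cluster 9, encodes the enzyme that begins the breakdown of tryptophan and is a classic interferon-gamma target.

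The marker genes placed cluster 9 among the surface colonocytes. Summed over its DSS cells (2555197 UMIs), the surface colonocyte list stood at 41531 CPM, the 4th highest of the 19 clusters with at least 20 DSS cells, whose other values ran from 865 to 48311 CPM. All 17 members of that list were at 10 CPM or more. Most of the sum came from Lypd8 (21074 CPM) and Car1 (11208 CPM), whereas Slc26a3, Aqp8 and Car4 were at 177, 228 and 123 CPM. Pan-epithelial genes were at 25011 CPM, the highest of the 19 clusters. Lypd8, a surface protein that binds flagellated bacteria, was in every one of the 108 cells, with a lowest value of 3468, a median of 19434 and a highest value of 56878 CPM. Krt20, a keratin of mature surface cells, was in 106 cells with a median of 1753 CPM and a highest value of 6864 CPM.

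Leukocyte, stromal, cycling and other secretory markers were low in cluster 9, whereas the small intestinal enterocyte and crypt base stem lists ranked higher. The leukocyte list summed to 14.5 CPM, T cell genes to 3.13, stromal genes to 3.52, enteroendocrine genes to 28.2 and tuft cell genes to 12.9 CPM. B and plasma cell genes summed to 40.3 CPM and myeloid genes to 88.1 CPM. Deep crypt secretory genes summed to 14.1 CPM, and small intestinal enterocyte genes to 205 CPM, the 2nd highest of the 19 clusters, with Lct and Reg1 at 0. Only 2 of the 7 members of the latter list reached 10 CPM. Its sum was 143 CPM in cluster 7, 124 in cluster 6 and 345 in cluster 17, so the list was not particular to cluster 9. The protocol text in the labels of the colonic samples speaks of the small intestine, and how the colon was prepared was not given in the sources used here. Cycling genes were at 187 CPM, rank 18 of 19. The crypt base stem list was at 624 CPM, rank 5 of 19, but this came mostly from Prom1, and Lgr5, Ascl2 and Olfm4, which mark intestinal stem cells, had no UMI. The goblet list was at 689 CPM, and 80.3% of the UMIs of Muc2, the main secreted mucin, lay in 3 cells. By these markers cluster 9 is surface colonocyte-like, although the genes with the highest ratio to all other DSS cells pooled were led by Ido1, Prss22, Ubd, Aldh1a3, Clu and Clca4a, a list that includes interferon-answering genes and a repair gene along with the colonocyte gene Clca4a. Clu was not highest in cluster 9: cluster 18 stood at 470 CPM, with 81 UMIs in 4 of its 33 cells. Cluster 18 counted as a leukocyte cluster here, with a Ptprc UMI in over 50% of its cells, but also had a stromal list of 12929 CPM beside its leukocyte list of 8263 CPM.

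**Figure D1:**
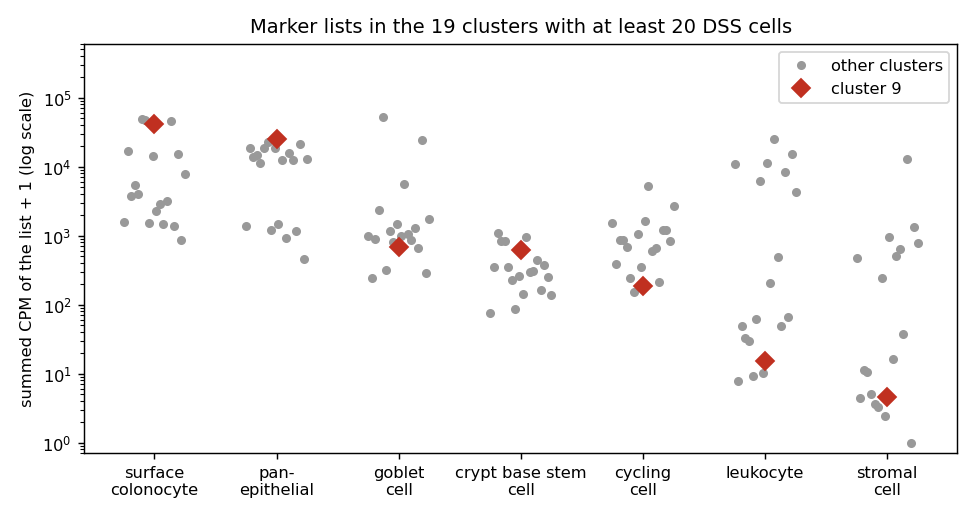
Summed CPM + 1 of 7 marker lists (log scale) in the 19 clusters with at least 20 DSS cells, one point per cluster. Cluster 9 (red diamonds) sat near the top for surface colonocyte genes (41531 CPM) and at the top for pan-epithelial genes (25011 CPM), and low for cycling, leukocyte and stromal genes.

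Over 8206 genes, the clusters whose log CPM correlated best with cluster 9 were cluster 7 (r = 0.954, 139 DSS and 8 normal cells), cluster 6 (r = 0.945, 157 DSS and 64 normal cells) and cluster 3 (r = 0.940, 1 DSS and 274 normal cells). Clusters 7 and 6 serve below as DSS surface colonocytes to set beside cluster 9, and the normal cells of clusters 6 and 3 serve as normal ones. The clustering used these same genes, so the differences are descriptions of the cluster and carry no test.

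The leading genes were carried by few cells. Ido1 (chr8:24584136-24597009, minus strand, GRCm38) had a lowest and median value of 0 and a highest value of 4063 CPM per cell, with a UMI in 12 of 108 cells and 84.9% of its 397 UMIs in 5 cells. Ubd, which encodes the ubiquitin-like interferon target FAT10, was found in 18 cells with a highest value of 2100 CPM, and 86.8% of its UMIs lay in 5 cells. Clu (chr14:65968483-65981547, plus strand), the clusterin gene that marks revival cells after injury, ranged from 0 to 10751 CPM with a median of 0, in 46 of 108 cells, and 73.1% of its UMIs lay in 5 cells. At least 1 of these 3 genes was found in 56 of the 108 cells, and 52 held none of them at this depth. Prss22, a serine protease gene, was spread more widely, with UMIs in 39 cells and 36.7% of them in the top 5. Trim15 and Trim40, of the tripartite motif ubiquitin ligase family, were wider still, in 71 and 76 cells.

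Each cell was then thinned to 5000 UMIs to put the clusters at 1 depth, which left 89 cells of cluster 9, 101 of cluster 7, 125 of cluster 6 and 87 of the 445 cells of leukocyte clusters in the DSS library. Those 87 were deeper than most, as the 445 had a median of 3532 UMIs. Of the thinned cells of cluster 9, 8.99% held an Ido1 UMI, against 1.98% in cluster 7, 0% in cluster 6 and 1.15% in leukocytes. Clu was in 31.5% of thinned cells of cluster 9, 5.94% of cluster 7, 1.60% of cluster 6 and 2.30% of leukocytes. Prss22 was in 25.8%, 0%, 1.60% and 0% in the same order, so all 3 shares of cluster 9 lay above the leukocyte level. Before thinning, 42.6% of its cells held a Clu UMI.

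Summed over cells, cluster 9 stood far above its neighbours in these genes. Ido1 was at 155 CPM (95% Poisson interval 140 to 171) in cluster 9, 0.917 CPM in cluster 7 and 0.297 CPM in cluster 6, and it had no UMI in the normal cells of clusters 6 and 3. Prss22 was at 109 CPM in cluster 9, 2.75 in cluster 7 and 1.19 in cluster 6. Clu was at 409 CPM (385 to 435) in cluster 9, 44.0 in cluster 7 and 2.68 in cluster 6 of the DSS library, and at 3.37 and 1.82 CPM in the normal cells of clusters 6 and 3. Without the 1 cell with most Clu, cluster 9 was at 248 CPM (229 to 268). The ratio to cluster 7 was therefore 9.30 for Clu (7.54 to 11.6) and 169 for Ido1 (46.6 to 1404), the wide interval of Ido1 coming from its 2 UMIs in cluster 7. Ly6a, the stem cell antigen Sca-1 and a repair gene, did not separate the cluster in this way. Its per-cell median was 1168 CPM in cluster 9, below the 1578 CPM of cluster 7 and above the 209 CPM of cluster 6. At 1000 CPM or more were 54.6% of the cells of cluster 9 and 82.0% of those of cluster 7. The summed level was 2379 CPM in cluster 9, 1811 in cluster 7 and 398 in cluster 6, and the normal cells of cluster 3 were higher at 2765 CPM. Its log2 ratio to cluster 7 was 0.39, and −0.22 without cells holding an Ido1 UMI. Those cells were left out of both clusters, 12 in cluster 9 and 2 in cluster 7.

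**Figure D2:**
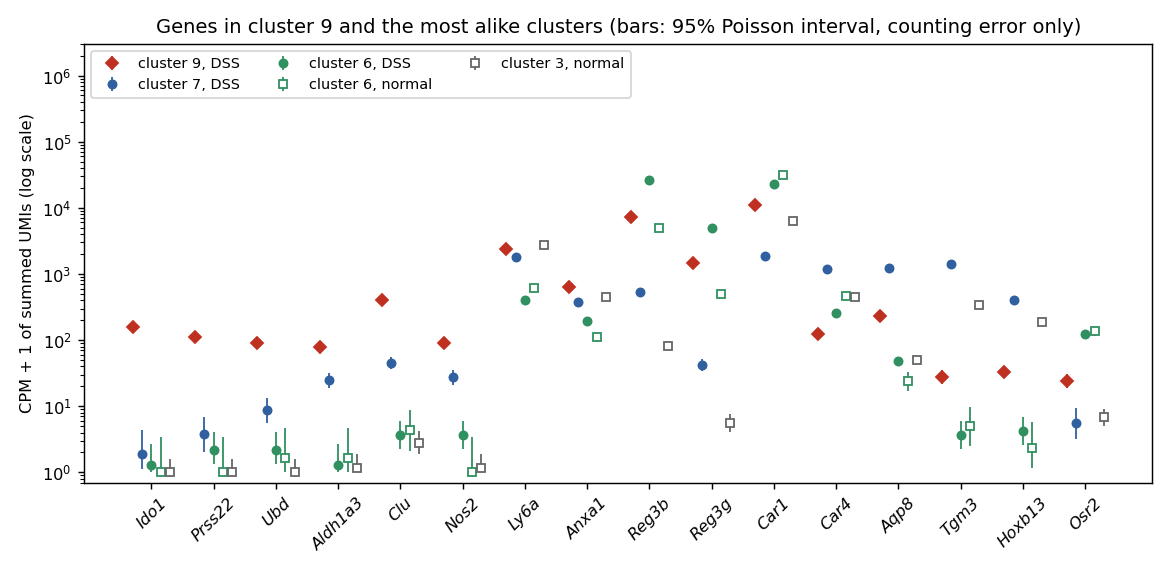
CPM + 1 (log scale) of 16 genes summed over the DSS cells of clusters 9, 7 and 6 (filled) and the normal cells of clusters 6 and 3 (open), with 95% Poisson intervals for counting error only. Ido1, Prss22, Ubd, Aldh1a3, Clu and Nos2 were highest in cluster 9, whereas Ly6a was as high in the normal cells of cluster 3 (2765 CPM) and Reg3b highest in DSS cells of cluster 6.

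Against cluster 7, 253 of 6768 genes with a mean of at least 10 CPM (3.74%) were past 2-fold higher in cluster 9 and 235 (3.47%) past 2-fold lower. Ratios are on the log2(CPM + 1) scale, which understates the change of low genes. The highest ratios were those of Ido1, Myl7, Reg3g, Mal, Prss22 and Muc4. Muc4, a membrane mucin, was at 75.5 CPM against 4.59 in cluster 7. Among the 12 lowest were Tgm3, a transglutaminase that crosslinks proteins in surface epithelia (27.0 against 1412 CPM), Atp12a, the colonic proton-potassium pump (8.22 against 460 CPM), Slpi, a secreted protease inhibitor (6.65 against 189 CPM), and Slc37a2, which had no UMI in cluster 9 and stood at 72.9 CPM in cluster 7.

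Against cluster 6, 395 of 6766 genes (5.84%) were past 2-fold higher in cluster 9 and 241 (3.56%) past 2-fold lower. Besides Ido1, Clu and Prss22, the higher genes included Aldh1a3, which makes retinoic acid (76.3 against 0.297 CPM), and Nos2, the inducible nitric oxide synthase (88.8 against 2.68 CPM). Nos2 was found in 42 of the 108 cells, and Aldh1a3 in 21, with 58.5% of its UMIs in 3 of them. The 12 lowest ratios were led by Gm21885 and Tmem252 and included Slc51a, a basolateral bile acid exporter (47.8 against 479 CPM), Slc10a2, the apical bile acid importer (8.22 against 79.1 CPM), Fabp6, the bile acid binding protein (3.91 against 54.7 CPM), and Ces1g, a carboxylesterase (13.3 against 186 CPM).

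Gene lists by role gave the following counts, each to be read against the 3.74 and 5.84% of all genes that were higher and against medians over all genes of 0.03 and 0.04 on the log2 scale. Of 21 measured genes for the interferon response and MHC class I presentation, 10 were past 2-fold higher than in cluster 7 and 0 lower (median 0.88), and against cluster 6 it was 8 of 22 and 0 (median 0.61). Without cells holding an Ido1 UMI on either side of the ratio, 4 of 18 were higher than in cluster 7 (median 0.34). Against cluster 6 it was then 0 of 18 (median 0.18). Gbp2, a guanylate-binding GTPase, was at 72.0 CPM in cluster 9 and 6.42 in cluster 7 (log2 ratio 3.30, and −0.82 without the cells holding an Ido1 UMI). Normal cells of cluster 3 were above cluster 9 in several members of this list: Isg15 was at 872 against 77.1 CPM and Irf7 at 520 against 145 CPM. All 5 measured MHC class II genes were higher than in either cluster (medians 1.71 and 2.97), led by Cd74, the class II invariant chain, at 455 CPM against 97.7 and 45.5. Over cluster 7 this changed with the weight of the cells: 1 of the 5 was past 2-fold when each cell counted equally (median 0.85), and 2 of the 5 after thinning to 5000 UMIs (median 0.88). Without cells holding an Ido1 UMI, 3 of 4 measured were higher than in cluster 7 (median 1.17), and Cd74 stood at 153 CPM in the other 96 cells. A gene low in the neighbour can pass the 10 CPM filter through cluster 9 alone. At a mean of at least 50 CPM, 1 class II gene was measured over cluster 7. Of the interferon and MHC class I genes, 2 of 11 were then past 2-fold higher than in cluster 7 (median 0.60). With 10 instead of 1 CPM added before log2, it was 6 of 21 (median 0.76). Cd74 is also a leukocyte gene, and in cluster 9 the leukocyte list was at 14.5, the myeloid list at 88.1 and the B and plasma cell list at 40.3 CPM. The source of its Cd74 was not tested.

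Repair genes were higher in part. Of 12 measured revival and fetal-like genes, 5 were past 2-fold higher than in cluster 7 and 8 than in cluster 6, with 0 lower in each (medians 0.81 and 1.57). With no filter the median over cluster 7 was 1.29. Those higher than in both included Anxa5 (97.1 against 10.5 and 15.5 CPM) and Krt7, a keratin (194 against 23.4 and 28.2 CPM), while Sprr1a, a cornified envelope protein, was past 2-fold against cluster 7 alone (439 against 79.8 and 247 CPM) and Cxadr, an adhesion receptor, was at 124, 116 and 154 CPM. Of a published list of genes that rise in intestinal regeneration, 22 of 56 measured were higher and 2 lower than in cluster 7 (median 0.78), and 27 of 53 higher and 2 lower than in cluster 6 (median 1.03). Without cells holding an Ido1 UMI on either side it was 15 of 51 (median 0.48) and 21 of 51 (median 0.60) higher. Of its counterpart, the genes that fall, 14 of 40 were lower and 1 higher than in cluster 7 (median −0.56), and 18 lower and 2 higher than in cluster 6 (median −0.88). Both lists were drawn from injury models that include DSS colitis, so their direction in DSS cells is not independent evidence.

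Defence genes of the colonocyte surface went in different directions. Duox2 and Duoxa2, which make hydrogen peroxide at the apical membrane, were at 292 and 382 CPM in cluster 9, close to the 269 and 273 CPM of cluster 7 and above the 36.0 and 28.8 CPM of cluster 6. Saa1, an acute phase protein, was at 1709 CPM, below the 8968 CPM of cluster 7 and above the 964 CPM of cluster 6. S100a11, a calcium-binding protein, was at 965 CPM against 187 and 162 CPM, the only one of 7 measured genes of the epithelial S100 list past 2-fold against cluster 7. S100a9, a neutrophil protein outside that list, was at 9.39 CPM in cluster 9 and 106 CPM in cluster 7, beside 19472 CPM in the leukocytes of the library, and its log2 ratio went from −3.37 to −1.81 without cells holding a Ptprc UMI. Of 9 measured chemokine and cytokine genes, 4 were higher and 4 lower than in cluster 7, and one of those higher, Cxcl9, had all of its 109 UMIs in 1 cell.

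Transport and metabolism genes set cluster 9 apart from each neighbour differently. Of 18 ion and water transport genes, 8 were past 2-fold lower than in cluster 7 and 2 higher (median −0.73, ranging from −1.02 at a minimum of 50 CPM to −0.31 with no filter), including the water channel Aqp8 (228 against 1212 CPM) and the surface carbonic anhydrase Car4 (123 against 1182 CPM). Against cluster 6 it was 3 lower and 4 higher (median 0.09), and Aqp8 was above the 47.3 CPM of that cluster. Car1, a cytoplasmic carbonic anhydrase, lay between them with 11208 CPM in cluster 9, 1868 in cluster 7 and 22813 in cluster 6. Of 17 glycolysis and hypoxia genes, 2 were higher than in cluster 7 (median 0.60) and 8 than in cluster 6 (median 0.96), with 0 lower, among them Bnip3, a mitophagy receptor induced by low oxygen (103 against 33.0 and 13.4 CPM). Fat oxidation and ketogenesis genes had 5 of 19 lower than in cluster 6 and 0 higher (median −0.66). Xenobiotic and carboxylesterase genes had 10 of 21 lower than in cluster 6 and 1 higher (median −0.95). Over cluster 7 neither list fell in this way, with 2 of 16 fat oxidation genes higher and 1 lower (median 0.12) and 4 of 19 xenobiotic genes higher and 5 lower (median −0.29). Respiratory chain and cytoplasmic ribosomal protein genes had 0 members past 2-fold in either comparison.

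**Figure D3:**
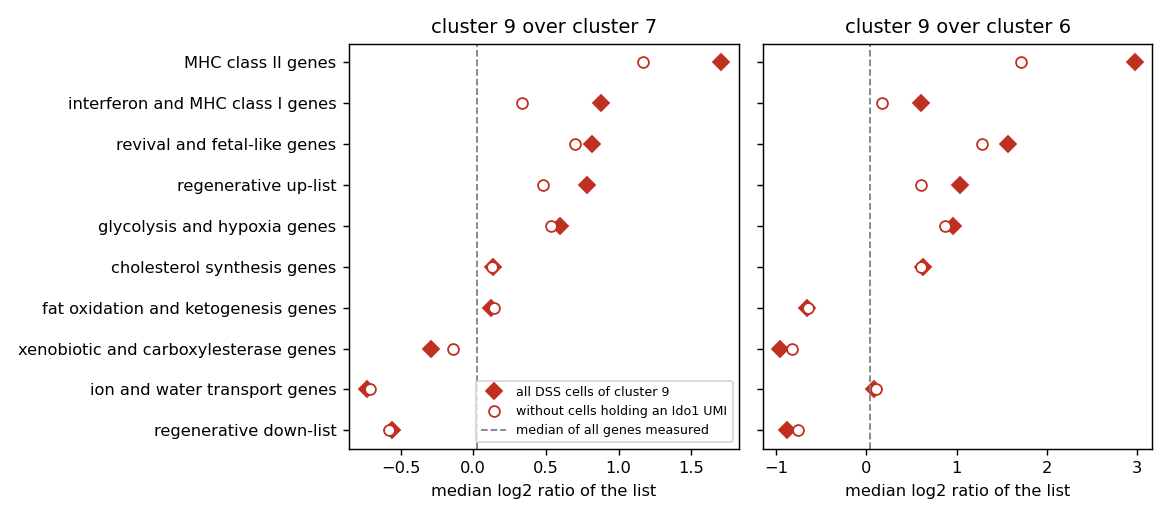
Median log2 ratio of 10 gene lists for cluster 9 over cluster 7 (left) and over cluster 6 (right), in all DSS cells (filled) and without the cells holding an Ido1 UMI in both clusters compared (open). The dashed line is the median of all genes measured (0.03 and 0.04). Without those cells the interferon and MHC class I median fell from 0.88 to 0.34 and from 0.61 to 0.18, while the lists for transport, fat oxidation and cholesterol moved little.

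Some interferon genes of cluster 9 were concentrated in the 12 cells with an Ido1 UMI, which held 14.7% of all UMIs of the cluster. These cells, defined by Ido1 itself, held from 1 to 118 Ido1 UMIs each and 96.7% of the Gbp2 UMIs of the cluster, 98.2% of those of Iigp1, an immunity-related GTPase, 89.9% of those of Ubd and 71.3% of those of Cd74. A single cell held 87 of the 178 Gbp2 and 52 of the 106 Iigp1 UMIs of the 12, and 2 cells held 162 of their 205 Ubd UMIs. Cd74 had a per-cell median of 1754 CPM in the 12 cells and 0 in the other 96. Its highest value in the 12 was 4292 CPM, in a cell of 54054 UMIs. In the others it was 7407 CPM, in a shallow cell of 2295 UMIs. Ly6a had medians of 7451 and 987 CPM, and summed levels of 7450 and 1505 CPM. Summed Psmb8, an immunoproteasome subunit, was at 589 and 80.7 CPM and B2m, the MHC class I light chain, at 1635 and 612 CPM. Other members of the list lay near the share of all UMIs, with 18.2% for Ifit1, 17.1% for H2-T23, 22.2% for Irf7 and 11.6% for Ifitm3. Isg15 was at 95.9 and 73.9 CPM and Ifi27l2b at 218 and 394 CPM. Krt20 was at 2701 and 1851 CPM, so the 12 cells carried the surface keratin too.

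The myeloid list was higher in the 12 Ido1 cells than in the other 96, while Ptprc and doublet scores were too sparse to compare them. The 12 cells had a median of 32855 UMIs and the other 96 a median of 25320.5, a leukocyte list sum of 13.3 and 14.7 CPM, a T cell sum of 5.33 and 2.75 CPM and a myeloid sum of 154 and 76.6 CPM. The part of myeloid RNA was not tested. None of the 12 had a Ptprc UMI or a Scrublet score in the highest 5%. Outside cluster 9, Ido1 was found in 19 of 1825 DSS cells with 31 UMIs in all. Over the 89 thinned cells, which share 1 library, the log counts of Ido1 correlated with those of Gbp2 at r = 0.75, with Ly6c1 at 0.65, with Upp1 and Cd74 at 0.60 each and with Igtp at 0.58. These were picked as the 5 highest in a scan of 2579 genes, and 8 of the 89 cells held an Ido1 UMI.

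**Figure D4:**
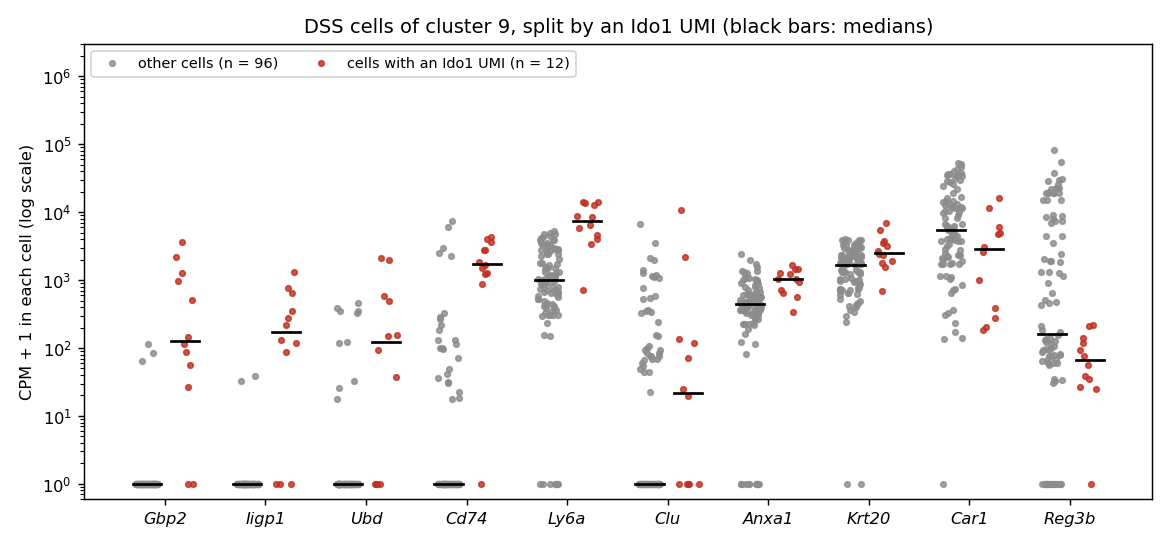
CPM + 1 (log scale) of 10 genes in each DSS cell of cluster 9, with the 12 cells holding an Ido1 UMI in red, the other 96 in grey and medians as black bars. Cd74 (1754 and 0 CPM) and Ly6a (7451 and 987 CPM) had higher medians in the 12 cells, whereas Reg3b reached 83675 CPM only among the other 96. The highest Cd74 value (7407 CPM) was also among the other 96, in a shallow cell of 2295 UMIs.

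Promoters of Igtp and Gbp7, members of the interferon list that were higher in the 12 cells, are shown, and the pair was picked among the 3 genes of the lists whose window holds both motifs below (Bst2 is the other one), since interferons act through short sites of known letters: the gamma-activated site (TTCNNNGAA) and the interferon-stimulated response element (GAAA, any 2 bases, then GAAA), both searched on both strands. Igtp, an immunity-related GTPase, was at 261 CPM in the 12 cells and 17.9 CPM in the others, and Gbp7, a guanylate-binding protein, at 26.6 and 2.75 CPM. The sequences are the 250 bases before each gene's start in RefSeq GRCm38.p6, both on the plus strand, Igtp at chr11:58199306-58199555 and Gbp7 at chr3:142530086-142530335, and capitals mark the matches.
Igtp: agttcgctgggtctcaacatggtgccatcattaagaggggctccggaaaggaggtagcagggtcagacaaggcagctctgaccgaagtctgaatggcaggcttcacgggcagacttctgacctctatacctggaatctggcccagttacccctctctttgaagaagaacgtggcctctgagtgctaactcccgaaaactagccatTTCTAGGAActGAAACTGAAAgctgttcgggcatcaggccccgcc
Gbp7: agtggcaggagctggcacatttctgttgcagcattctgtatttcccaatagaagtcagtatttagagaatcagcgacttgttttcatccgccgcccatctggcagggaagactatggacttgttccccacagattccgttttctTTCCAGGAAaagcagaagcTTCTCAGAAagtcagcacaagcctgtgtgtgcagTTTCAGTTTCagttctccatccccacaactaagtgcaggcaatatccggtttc
The Igtp window held a gamma-activated site 45 bases and a response element 34 bases before the start. The Gbp7 window held gamma-activated sites 106 and 87 bases and a response element 53 bases before the start. The same letters were in 2306 (7.02%) and 978 (2.98%) of all 32851 promoters of the table, and in 5 and 9 of the 23 matched genes among the 32 of the interferon and MHC class II lists. A match is a description of the letters and not of binding.

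Reg3b was lower in the cells of cluster 9 with a Clu UMI than in those without, though some cells held both. Reg3b, a secreted antibacterial lectin, had a per-cell median of 132 CPM and a highest value of 83675 CPM, and 39 of the 108 cells (36.1%) at 1000 CPM or more held 99.2% of its UMIs. At the depth of 5000 UMIs the share of cells with any Reg3b UMI was 59.6%, below the 63.2% of the leukocytes deep enough to be thinned. Low Reg3b counts therefore do not set cells apart, and only the level is read. The summed level was 7333 CPM in cluster 9, 538 in cluster 7 and 26543 in cluster 6, and Reg3g followed with 1472, 41.3 and 4980 CPM. The 46 cells with a Clu UMI had 1158 CPM of Reg3b and the other 62 had 13977 CPM. Car1 was at 5844 and 16979 CPM in the same sets, and Ly6a, in the other direction, at 3186 and 1510 CPM. Reg3b stood at 71.9 CPM in the 12 Ido1 cells.

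At least 1 UMI of each of the repair genes Ly6a, Anxa1 and Clu was present in 43 of 108 cells of cluster 9 (39.8%), 14 of 139 of cluster 7 (10.1%) and 6 of 157 of cluster 6 (3.82%). At 5000 UMIs the shares were 28.1% of 89 cells (19.1 to 38.6%), 4.95%, 0.80% and, in leukocytes, 1.15%. Ly6a and Anxa1 were widespread, in 100 and 96 of the 108 cells with Anxa1 at a median of 483 CPM, and Clu was the rarest of these genes. Of the 463 Clu UMIs in the 12 Ido1 cells, 423 were in 1 cell.

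Cluster 9 held cells with Hoxb13, a gene common in cluster 7, and cells with Osr2, a gene common in cluster 6. Hoxb13 (chr11:96194316-96197447, plus strand), a homeobox gene of the distal colon, had a UMI in 31 of the 108 cells (28.7%), and Osr2, a zinc finger gene that was high in cluster 6, in 21 (19.4%), with both in 1 cell and neither in 57. Many of these calls rest on few UMIs, 82 of Hoxb13 and 60 of Osr2 in all, and no table here ties Osr2 to a place in the colon. In cluster 7, 124 of 139 cells (89.2%) held Hoxb13, and in cluster 6, 120 of 157 (76.4%) held Osr2. Summed levels of Reg3b, Car1 and Cyp2c55 differed between the cells holding either gene, in the same order as in the neighbours. In the 30 cells of cluster 9 with Hoxb13 alone Reg3b was at 387 CPM and in the 20 with Osr2 alone at 18725 CPM, beside 143 CPM in the Hoxb13 cells of cluster 7 and 26774 CPM in the Osr2 cells of cluster 6. Single deep cells weighed on both Reg3b sums of cluster 9. A Hoxb13 cell of 30741 UMIs was at 6961 CPM of Reg3b, and an Osr2 cell of 58703 UMIs at 83675 CPM. Some Osr2 cells had no Reg3b UMI. Summed Car1 was at 3218 and 18860 CPM, beside 1755 and 23193 CPM. Cyp2c55, a cytochrome P450, was at 42.1 and 495 CPM, beside 27.8 and 873 CPM. Car4 and Aqp8 did not follow the order of the neighbours: Car4 was at 48.5 CPM in the Hoxb13 and 212 CPM in the Osr2 cells of cluster 9, beside 1229 and 235 CPM. Aqp8 was at 158 and 430 CPM, beside 1259 and 44.1 CPM.

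Summed Prss22 and Clu of both kinds of cluster 9 cell were above those of the matching neighbour cells, with few cells carrying much of each. Clu was at 1006 CPM in the Hoxb13 cells of cluster 9 and 39.7 CPM in those of cluster 7, and at 212 CPM in the Osr2 cells of cluster 9 and 2.43 CPM in those of cluster 6. Of the 788 Clu UMIs in the Hoxb13 cells of cluster 9, 423 were in 1 cell, and without it they stood at 490 CPM. In the Osr2 cells 6 of 20 held Clu, with 121 of the 133 UMIs in 2 cells, and the other 18 cells stood at 22.2 CPM (11.5 to 38.8). Prss22 was at 120 against 3.09 CPM and at 86.0 against 1.39 CPM, found in 14 of the 30 Hoxb13 and 7 of the 20 Osr2 cells of cluster 9. In each set 2 cells held 37 Prss22 UMIs, of 94 in the Hoxb13 and 54 in the Osr2 cells. Without the 8 Ido1 cells, the Hoxb13 cells of cluster 9 were at 48.6 CPM of Prss22 and 643 CPM of Clu. Ly6a was at 3914 against 1853 CPM and at 1057 against 403 CPM, but at 1914 CPM in the Hoxb13 cells without the Ido1 cells, close to cluster 7. Tgm3, by contrast, was at 60.0 CPM in the Hoxb13 cells of cluster 9 and 1470 CPM in those of cluster 7, and Saa1 at 1991 and 9191 CPM. Nos2 and Upp1, a uridine phosphorylase, were higher in the Hoxb13 cells of cluster 9 (171 and 780 CPM) than in its Osr2 cells (11.1 and 33.4 CPM). Without the Ido1 cells the Hoxb13 cells were at 140 CPM of Nos2 and 150 CPM of Upp1, the latter close to the 149 CPM of cluster 7. All Ido1 UMIs of these cells were in the Hoxb13 set (366 CPM), and of the 12 Ido1 cells 8 held Hoxb13 and 0 Osr2.

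**Figure D5:**
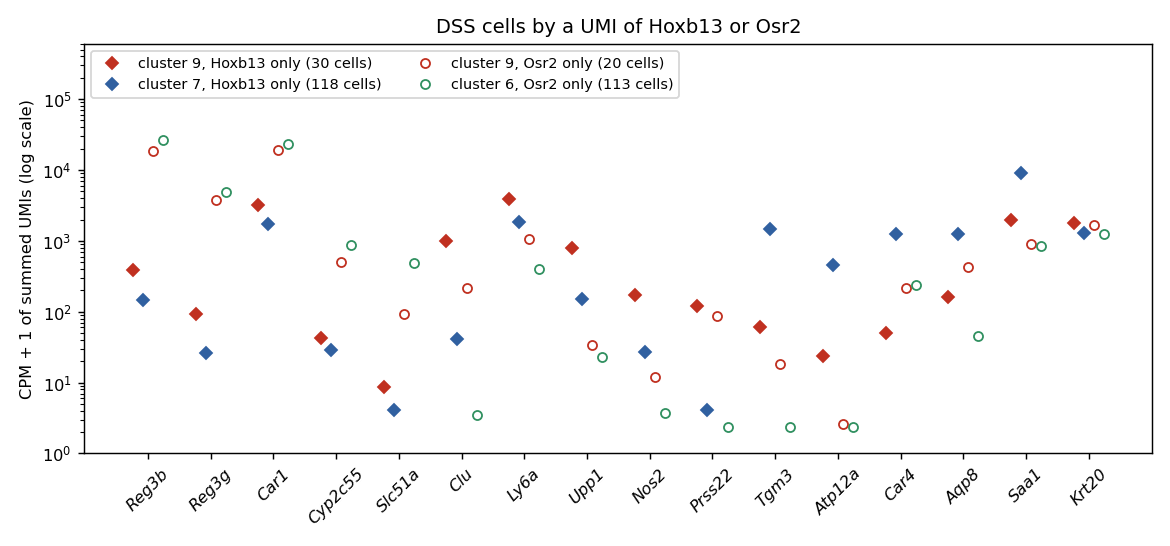
CPM + 1 (log scale) of 16 genes summed over DSS cells with a UMI of Hoxb13 only (diamonds) or Osr2 only (circles) in cluster 9 (red), cluster 7 (blue) and cluster 6 (green). Summed Reg3b, Reg3g and Car1 in cluster 9 differed between the 2 sets (387 and 18725 CPM of Reg3b), with single deep cells weighing on the Reg3b sums. Summed Clu and Prss22 were above the matching neighbour in both sets. In the Osr2 cells 121 of the 133 Clu UMIs and 37 of the 54 Prss22 UMIs lay in 2 cells.

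The normal side of cluster 9 was too thin to measure. Its 2 cells held 1186 and 4313 UMIs, so 1 UMI was worth 182 CPM and a count of 0 allows up to 546 CPM. They carried 63 UMIs of Lypd8, 55 of Krt8, 10 of Epcam and 5 of Krt20, which are epithelial or colonocyte genes, 63 UMIs of Saa1 and 1 of Car1, where the DSS levels would give 9.40 and 61.6. Ido1, Clu and Prss22 were at 0 in these cells, but their DSS levels would give fewer than 3 UMIs, so no difference was detectable at this depth. Reg3b and Ly6a were also at 0, where the summed DSS levels would give 40.3 and 13.1 UMIs. Those sums do not stand for every DSS cell. Reg3b had a per-cell median of 132 CPM, below the worth of 1 UMI here, and 39 of the 108 cells held 99.2% of its UMIs. Ly6a was at 950 CPM in the 19 shallowest DSS cells and 2409 CPM in the other 89. With 2 normal cells, no difference is read from these counts of 0 either. Of 5221 measured genes, 3442 (65.9%) were past 2-fold higher in DSS and 1258 (24.1%) lower. With 1 UMI worth 182 CPM in the normal cells, nothing about DSS is read from these shares.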

How the data were processed

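Colonic crypt cells of 1 normal and 1 DSS mouse library were analysed. Reads were turned into gene counts by the authors in Cell Ranger (3.0.0 in the submitters' processing notes), and cells were clustered in Seurat (3.1.4 in the same notes); the deposited matrices hold raw UMI counts per gene and cell, and the deposited cell table gives the kept cells and their cluster names. The clusters were used as deposited, and 0 columns of sample values were without a sample. Doublets were scored with Scrublet in scanpy 1.11.5, which called 5 of 1933 DSS and 6 of 1132 normal cells and so did not work as a caller, and no cell was removed.

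UMIs were summed per cluster and library and divided by the total to CPM, with exact Poisson 95% intervals; shares have exact Clopper-Pearson intervals. Genes with a mean of at least 10 CPM counted as measured and a log2((CPM + 1)/(CPM + 1)) of 1 or more as past 2-fold. These cover counting error only, and with 1 library per group no test was run. For shares, cells were thinned to 5000 UMIs with a fixed seed; leukocyte clusters were the 6 of 25 with a Ptprc UMI in over 50% of cells. Promoters came from RefSeq GRCm38.p6. Work was done in Python 3.11.15 with numpy 2.4.6, scipy 1.17.1 and pandas 2.3.3, and TMM scaling in R 4.3.3 with edgeR 4.0.16. The summing and intervals were tested on simulated data.

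The members and gene lists were chosen with earlier results of these data known. Named genes were the 15 with the highest ratio to all other DSS cells at 50 CPM or more, the 12 highest and 12 lowest ratios per comparison, list members past 2-fold, and a set list (Clu, Anxa1, Ly6a, Reg3b, Reg3g, Basp1, Cxadr, Lgr5, Ascl2, Olfm4 and Cd44); other genes named were chosen after their values were seen. The rule was written for DSS against normal; with 2 normal cells it was applied to DSS cells of cluster 9 against clusters 7 and 6 and against the rest, a change made after the data were seen. Cluster 7, with 8 normal cells, was added as the nearest although the planned minimum was 20 cells in each library.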

Additional observations from a re-analysis of the deposited data

How the results depend on the processing

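With 1 library per group, counting error is the only error measured, and genes at a few UMIs are limited by depth. Against clusters 7 and 6 alternatives were run for the 12 highest and 12 lowest ratios of each comparison and for Clu, Anxa1 and Ly6a, not for the other genes named. These log2 ratios kept their sign, except without the cells holding an Ido1 UMI, where Gbp2 over cluster 7 was −0.82, Ly6a over cluster 7 −0.22 and, by construction, Ido1 over either cluster 0. In that setting, which left such cells out of both clusters, Ubd over cluster 7 went from 3.36 to 0.36, no longer past 2-fold. Clu over cluster 7 went from 3.19 to 2.54. The ion and water transport median over cluster 6 (0.09) ran down to −0.21. The alternatives of those 2 comparisons were chosen after seeing the data. Over cluster 7 (253 genes higher, 235 lower) a pseudocount of 10 CPM gave 157 and 156, thinning to 5000 UMIs 516 and 542, no filter beyond 1 UMI 839 and 785, a mean of at least 50 CPM 80 and 102, and the mean over cells 404 lower. Over cluster 6 (395 and 241) the same thinning gave 692 and 518, no filter 953 and 666, 50 CPM 159 and 92, and a pseudocount of 10 CPM 146 lower. The MHC class II median over cluster 7 was 0.85 as a mean over cells and 0.88 thinned, and over cluster 6 it was 1.84 with a pseudocount of 10 CPM. Without the Ido1 cells the interferon and MHC class I medians were 0.34 and 0.18, and over cluster 6 the MHC class II median was 1.72 and the regenerative up-list 0.60. For DSS against normal, TMM scaling, which shifts all ratios by 1.72 on the log2 scale, gave 5247 higher and 551 lower of 6598 genes then measured, no filter 8828 higher and 50 CPM 735 higher; thinning to 5000 UMIs and a minimum of 1500 genes left no normal cell, and the planned list and single-gene alternatives of this comparison were not run. The share of cluster 9 was 7.26% of DSS cells without leukocyte clusters and 0% of normal cells with at least 1500 genes. Shares of cells with a UMI were 81.4% for Ly6a, 47.4% for Reg3b and 13.4% for Prss22 at 2500 UMIs, and 81.5% for Reg3b and 42.6% for Clu unthinned. The cause of these moves was not tested. No paired analysis was possible because each group was 1 library.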

Other observations

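The 19 DSS cells of cluster 9 with fewer than 5000 UMIs differed in level from the other 89. The nuclear RNA Malat1 was at 25762 CPM in the shallow cells and 6206 CPM in the deeper ones, Saa1 at 4161 and 1658 CPM, Muc2 at 1254 and 252 CPM and Aqp8 at 760 and 217 CPM. Clu was at 304 and 412 CPM in the same sets.

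Some single cells carried a large part of the UMIs of a gene outside the colonocyte programme. Acta1, a muscle actin, had 219 UMIs in cluster 9, of which 47.5% were in 1 cell, and Tff3, a goblet cell peptide, had 133 UMIs with 45.9% in 1 cell. Basp1 had 22 UMIs in 3 cells, 19 of them in 1 cell. Over the 89 thinned cells Reg3b and Reg3g correlated at r = 0.76, and Car1 and Nos2 at r = −0.54, values that describe cells of 1 library. Reg3g was picked as the gene most alike to Reg3b and Nos2 as the most opposite to Car1 among 2579 genes.

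Cholesterol synthesis genes had 0 of 16 members past 2-fold against cluster 7 and 6 higher with 0 lower against cluster 6. Fdps was at 220 CPM in cluster 9, 133 in cluster 7 and 86.8 in DSS cells of cluster 6, beside 211 CPM in the normal cells of cluster 6 and 337 CPM in those of cluster 3. Genes of the unfolded protein response had 0 of 17 past 2-fold against cluster 7 and 2 higher against cluster 6. Wnt target genes were mostly too low to measure, with 3 of 16 measured.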
